A study of Mus musculus with 6 samples.

Results

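The genes described here are p53 itself (Trp53), its inhibitors and its mouse target genes, 36 genes of the 23608 in the deposited table, with the CDK inhibitors and the BCL2 family left aside. The members were selected by symbol, with results of the oil and tamoxifen comparison already known. Their differences between the groups are therefore a description, and the p-values beside them come from a fit over all genes and are not independent evidence about the pathway. All 36 symbols occurred in the table, 34 passed the filter on low counts, and Fas and Plk2 did not.

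RNA was sequenced from leukaemia cells driven by AE9a, a truncated AML1-ETO fusion protein. The cells came from mouse fetal liver of the genotype Usp18+/f UBCER-Cre, were transduced with an MSCV-IRES-GFP retrovirus carrying AE9a, and were passed to a secondary set of sub-lethally irradiated recipients. Recipients with overt disease were injected with corn oil (genotype label Usp18+/f, 3 libraries) or with tamoxifen (genotype label Usp18+/D, the deleted allele, 3 libraries), and 3 days after injections began the Lin- c-Kit+ GFP+ fraction of their splenocytes was collected. Before the injections the cells of every library, oil included, carried AE9a, 1 floxed Usp18 allele and the Cre. A ubiquitin C promoter drives this Cre in all cell types, and tamoxifen activates it. Tamoxifen, Cre activity and loss of a Usp18 allele came together, so they cannot be told apart in these 6 libraries, and the age of the mice was not given in the labels. Libraries are named by the column numbers of the table, oil 1, 3 and 4 and tamoxifen 1, 2 and 4.

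p53 is a transcription factor that cells hold at a low level. Mdm2 marks the protein for destruction and Mdm4 blocks its activity, and DNA damage or other stress frees it, largely through changes in the protein and not in its mRNA. Freed p53 switches on genes that stop the cell cycle, repair DNA, adjust metabolism or start cell death, and it also switches on Mdm2, which closes a feedback loop. In blood cells the pathway is known for its part in the response to irradiation and chemotherapy.

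Library totals ran from 17118964 to 20741399 counts, and levels are given as CPM, counts relative to TMM-scaled library totals, in which 3 counts equal 0.145 to 0.177 CPM. The targeted gene was higher, not lower, in the libraries labelled with a deleted allele, a label that leaves the other allele in place. Usp18 stood at 9.12, 10.9 and 11.2 CPM in oil and at 15.2, 28.0 and 19.4 CPM in the libraries labelled tamoxifen (log2 fold change 1.0, edgeR adjusted p = 0.0739). Every direction below therefore refers to libraries labelled tamoxifen. The counts are per gene, and reads from a transcript of the deleted allele, if there were any, would be counted too. Isg15, the ubiquitin-like protein that Usp18 removes from other proteins and an interferon-stimulated gene, was at 13.3, 18 and 7.97 CPM in oil and at 17.4, 37.1 and 22.9 CPM in tamoxifen. Its groups overlapped (log2 fold change 0.98, adjusted p = 0.188 in edgeR and 0.0494 in DESeq2). Kit, the sorting marker, was at 439 to 781 CPM, whereas Ptprc (at most 0.71 CPM) and Mpo (at most 0.24 CPM), which blood progenitors are known to express, were near 0 in all 6 libraries. Of the other progenitor markers, Runx1 (545 to 809 CPM) and Spi1 (68.2 to 97.5 CPM) were expressed, and Cd34 rose from 9.68, 8.43 and 11.7 CPM to 113, 134 and 41.8 CPM (log2 fold change 3.27, adjusted p = 0.0232). These 6 markers summed to 1076 to 1113 CPM in oil and 1199 to 1740 CPM in tamoxifen, with 1 called higher. The summed level of 8 mast cell markers was 2892 to 3086 CPM in oil and 3631 to 7442 CPM in tamoxifen, with 2 called higher. That of 9 erythroid markers was 3906 to 6178 CPM in oil and 3126 to 7517 CPM in tamoxifen, with 1 called lower. The 10 macrophage markers summed to 5.57 to 9.74 CPM in oil and 9.83 to 24.6 CPM in tamoxifen, with 1 called higher. The 10 markers of T and NK cells summed to 1.13 to 2.57 CPM in oil and 7.62 to 56.5 CPM in tamoxifen. Among these 10, 7 were at 0 in all libraries, and Nkg7, the 1 called higher, made up the whole sum in tamoxifen. None of the 6 B cell or 8 neutrophil markers was tested, and these lists summed to at most 0.878 CPM in any library. The part of these cell types in the differences below was not tested, and in bulk samples fewer cells of a type and less RNA per cell cannot be told apart. Leaving out tamoxifen 4 raised the share of tested genes called in either direction from 2.01% to 36.3%, so member counts are given with and without it.

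Of the 34 tested members, 28 were higher and 6 lower in tamoxifen by the sign of the log2 fold change, with a median of 0.36 against 0.0001 over all 11614 tested genes. By edgeR's quasi-likelihood test with Benjamini-Hochberg adjustment, 5 members were higher at an adjusted p under 0.05 and 0 were lower, beside 1.75% of all tested genes called higher and 0.267% called lower. The 5 were Dglucy, Zmat3, Slc19a2, Trp53inp1 and Eda2r. At an unadjusted p under 0.05, 16 members were higher and 1 (Sesn1) was lower, beside 12.6% and 7.99% of all tested genes. All 3 tamoxifen libraries lay above all 3 oil libraries for 17 members and below them for 1, as they did for 13.3% and 11.8% of all tested genes. DESeq2 called 14 members higher and 0 lower, where it called 6.14% and 1.99% of all tested genes. Without tamoxifen 4, edgeR called 17 members higher and 1 (Ckap2) lower, while 19.2% and 17.1% of all tested genes were called. Since the members were picked with this comparison known, nothing is read from how far these counts exceed the background.

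**Figure D1:**
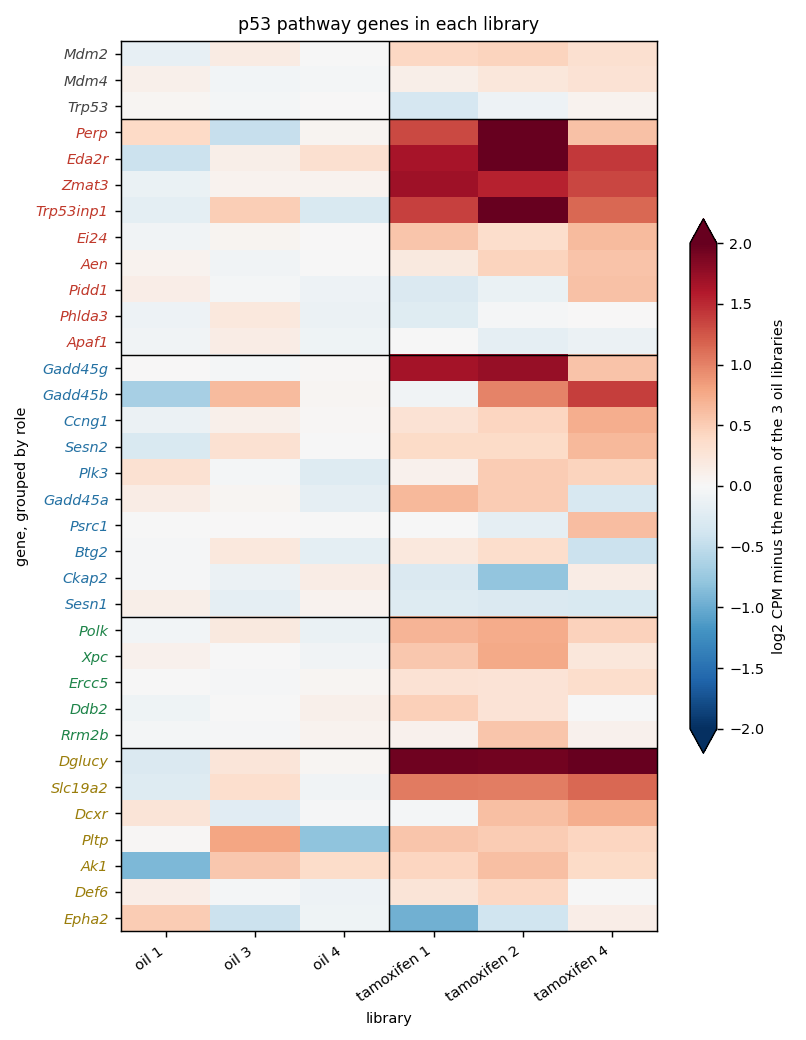
Each cell is the log2 CPM of 1 tested gene in 1 library minus the mean of that gene in the 3 oil libraries, with genes grouped by role (name colours as in the plot of log2 fold changes, black lines between roles) and colour saturating at 2 on either side of 0. Dglucy, Zmat3, Slc19a2, Trp53inp1 and Eda2r are more than 1 above the oil mean in all 3 tamoxifen libraries, while most other genes differ by less than 1.

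The 3 tamoxifen libraries carried the shift to different degrees. The median deviation of the 34 members from the oil mean was 0.29 on the log2 scale in tamoxifen 1, 0.44 in tamoxifen 2 and 0.44 in tamoxifen 4, while the median over all tested genes was within 0.01 of 0 in each. Tamoxifen 1 lay above all 3 oil libraries for 21 members (61.8%, against 38.7% of all tested genes), tamoxifen 2 for 25 (73.5% against 40.1%) and tamoxifen 4 for 23 (67.6% against 31.4%). Among the tamoxifen libraries, tamoxifen 4 was the highest for 16 of the 34 members, and the highest for 40.0% of all tested genes. It was also the lowest of the 3 for 15 members, against 12 for tamoxifen 1 and 7 for tamoxifen 2. The matching shares over all tested genes were not computed, so nothing is read from these counts of lowest libraries. By role, the DNA repair genes had their smallest median deviation in tamoxifen 4 (0.22, against 0.48 and 0.55 in tamoxifen 1 and 2), whereas the growth arrest genes had their largest there (0.51, against 0.15 and 0.41).

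Trp53, on chromosome 11 (chr11:69580359-69591873, plus strand, GRCm38), was among the most abundant members. Its level was 385, 364 and 375 CPM in oil and 296, 349 and 395 CPM in tamoxifen. The groups overlapped, with tamoxifen 4 above and tamoxifen 1 and 2 below every oil library, and the log2 fold change was -0.11 (SE 0.11, adjusted p = 0.577). Mdm2 (chr10:117688875-117710758, minus strand), the ubiquitin ligase of p53 and itself a p53 target, was at 49.5, 62.5 and 55.5 CPM in oil and at 74.1, 75.4 and 69.6 CPM in tamoxifen. The tamoxifen libraries were close together and lay above every oil library. The log2 fold change of Mdm2 was 0.39 (SE 0.11), which did not pass the test in edgeR (adjusted p = 0.107) and passed in DESeq2 (adjusted p = 0.0322). Mdm4 (chr1:132959484-133030561, minus strand), the partner of Mdm2 that masks the activation domain of p53, was at 248, 223 and 226 CPM in oil and at 251, 271 and 284 CPM in tamoxifen. The groups did not overlap, but oil 1 and tamoxifen 1 were nearly level, and the log2 fold change was 0.21 (SE 0.09, adjusted p = 0.234).

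Of the 10 death and death-receptor genes, 9 were tested and 3 rose. Zmat3 (chr3:32334792-32366014, minus strand), a zinc finger RNA-binding protein that p53 induces, was at 26.2, 30.1 and 30.3 CPM in oil and at 93.7, 83.8 and 72.6 CPM in tamoxifen. The groups were far apart, with the lowest tamoxifen library well above the highest oil library. Zmat3 rose 2.89-fold, from 28.9 ± 2.30 to 83.4 ± 10.6 CPM (SD, n = 3 libraries per group), and its log2 fold change was 1.53 (SE 0.12, edgeR adjusted p = 0.0031). Trp53inp1 (chr4:11156431-11174379, plus strand), a stress protein that works with p53 in cell death and in autophagy, was at 17, 27.5 and 15.7 CPM in oil and at 50.6, 78.1 and 43.2 CPM in tamoxifen. Tamoxifen 2 was far above the other two, and oil 3 above the other oil libraries. Trp53inp1 rose 2.85-fold, a log2 fold change of 1.51 (SE 0.28, edgeR adjusted p = 0.0420). Its call was lost in limma-voom (adjusted p = 0.0606) and with a filter at a mean of 50 counts. Eda2r (chrX:97333840-97377216, minus strand), a receptor of the TNF receptor family that binds ectodysplasin A2, was one of the scarcest members, at 0.56, 0.87 and 1.03 CPM in oil and at 2.74, 3.66 and 2.32 CPM in tamoxifen. It was low in every library, and all tamoxifen libraries were above all oil libraries. Eda2r rose 3.50-fold, a log2 fold change of 1.81 (SE 0.35, edgeR adjusted p = 0.0454). The call of Eda2r was lost in limma-voom (adjusted p = 0.0745) and with the replicate number as a block (edgeR adjusted p = 0.168). The block fit takes its fold changes from the libraries numbered 1 and 4 only.

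Ei24, an endoplasmic reticulum protein of autophagy, lay just outside the threshold. It was at 36.7, 40.3 and 38.9 CPM in oil and at 56.6, 49.4 and 59.8 CPM in tamoxifen. Its log2 fold change was 0.52 (SE 0.10, adjusted p = 0.0501 in edgeR and 0.0014 in DESeq2). The oil libraries were tight and the groups well separated, and 6.7% of the exon bases of Ei24 also lie in a gene on the other strand. Aen, a nuclease of apoptotic cells, was at 42.1, 38.3 and 39.8 CPM in oil and at 45.9, 54.3 and 59.3 CPM in tamoxifen. The log2 fold change of Aen was 0.41 (adjusted p = 0.117 in edgeR and 0.0394 in DESeq2). Its groups did not overlap. Perp, a membrane protein of desmosomes and of p53-driven death, was at 0.62, 0.29 and 0.46 CPM in oil and at 1.26, 4.61 and 0.72 CPM in tamoxifen. It passed the low-count filter only through the tamoxifen libraries, where it was higher. Its log2 fold change of 2.25 was the highest of the members and had the widest error (SE 0.74, adjusted p = 0.160 in edgeR and 0.0380 in DESeq2). Tamoxifen 2 decided its size: leaving out 1 library at a time, its log2 fold change ran from 1.12 (without tamoxifen 2) to 2.67 (without tamoxifen 4).

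The other 3 tested death genes had values on both sides of 0. Pidd1, which builds the PIDDosome that activates caspase-2, had a log2 fold change of 0.10, and its tamoxifen libraries split, with tamoxifen 4 (54.4 CPM) above and the others (29.9 and 33.1 CPM) below every oil library (34 to 40.0 CPM). Without tamoxifen 4 the sign of Pidd1 turned (-0.21). Apaf1, the scaffold of the apoptosome, ran from 127 to 150 CPM in oil and from 120 to 135 CPM in tamoxifen (log2 fold change -0.10), with overlapping groups. Phlda3, an inhibitor of Akt signalling, ran from 112 to 139 CPM in oil and from 102 to 121 CPM in tamoxifen (log2 fold change -0.09), also with overlap. Fas, the classical death receptor among p53 targets, was not tested: it had 0, 0 and 0 deposited counts in oil and 3.5, 5 and 3 in tamoxifen. These counts are at or near the 3 counts that a count of 0 allows, so no fold is given.

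None of the 10 tested growth arrest and stress genes was called in edgeR. Gadd45g, a stress sensor that acts on p38 and JNK signalling, was at 3.04, 2.96 and 3.09 CPM in oil and at 9.88, 10.3 and 4.53 CPM in tamoxifen. The oil libraries were nearly identical, and tamoxifen 4 was much nearer to them than the other two tamoxifen libraries were. The log2 fold change of Gadd45g was 1.44 (SE 0.32, adjusted p = 0.0679 in edgeR and 0.0013 in DESeq2). Its relatives were less separated: Gadd45b ran from 0.90 to 2.38 CPM in oil and from 1.43 to 4.09 CPM in tamoxifen (log2 fold change 0.82, SE 0.48). Gadd45a ran from 13.4 to 16.8 CPM in oil and from 12.2 to 23.9 CPM in tamoxifen (log2 fold change 0.34, SE 0.24). Both had overlapping groups, and tamoxifen 4 was the highest of all libraries for Gadd45b and the lowest of all for Gadd45a.

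Ccng1, the p53-induced cyclin G1 that recruits a phosphatase to Mdm2, was at 183, 212 and 202 CPM in oil and at 243, 268 and 330 CPM in tamoxifen. All tamoxifen libraries were above all oil libraries, tamoxifen 4 most of all. Its log2 fold change was 0.50 (SE 0.13, adjusted p = 0.0897 in edgeR and 0.0099 in DESeq2). The sestrins, which restrain mTORC1 under stress, went apart. Sesn2 was at 20.0, 30.5 and 24.5 CPM in oil and at 32.1, 32.1 and 38.8 CPM in tamoxifen, a log2 fold change of 0.45 (SE 0.17, adjusted p = 0.200). Sesn1 was at 42.4, 34.6 and 41.2 CPM in oil and at 32.7, 31.9 and 31.8 CPM in tamoxifen, a log2 fold change of -0.29 (SE 0.11, adjusted p = 0.203). The groups overlapped for neither, and Sesn1 was the only member whose tamoxifen libraries all lay below the oil libraries.

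The other growth arrest genes had overlapping groups. The kinase Plk3 ran from 2.73 to 4.11 CPM in oil and from 3.51 to 4.72 CPM in tamoxifen (log2 fold change 0.35). The microtubule protein Psrc1 ran from 41.2 to 41.7 CPM in oil and from 36.5 to 63.6 CPM in tamoxifen (0.18), and the antiproliferative Btg2 from 40.9 to 53.9 CPM and from 34.5 to 59.5 CPM (0.07). Psrc1 was far tighter in oil than in tamoxifen. The spindle protein Ckap2 (log2 fold change -0.27) was at 69.7 and 49.4 CPM in tamoxifen 1 and 2 and at 94.5 CPM in tamoxifen 4, within the 78.6 to 94.8 CPM of oil. Without tamoxifen 4 its log2 fold change was -0.52 and passed the test (adjusted p = 0.0156). Plk2, a stress kinase, had 0, 0 and 1 deposited counts in oil and 3, 3 and 11 in tamoxifen, and it was not tested.

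All 5 DNA repair and nucleotide supply genes had a positive log2 fold change, between 0.26 and 0.62, and none was called. Polk, a polymerase that copies past damaged bases, was at 16.1, 19.2 and 15.2 CPM in oil and at 26.8, 28.0 and 23.0 CPM in tamoxifen (log2 fold change 0.62, SE 0.14, adjusted p = 0.0696). Xpc, which finds bulky lesions, was at 21.3, 19.9 and 19.1 CPM in oil and at 29.3, 34 and 23.5 CPM in tamoxifen (log2 fold change 0.52, SE 0.15, adjusted p = 0.121). Tamoxifen 4 was the lowest tamoxifen library for both, though still above every oil library. Ercc5, the nuclease XPG that cuts beside a lesion, was at 50.7, 50.1 and 52.3 CPM in oil and at 62.6, 61.8 and 65.3 CPM in tamoxifen. Both groups were tight and clear of each other, and the log2 fold change of 0.31 had the smallest SE of the members (0.08, adjusted p = 0.0965). Rrm2b, the p53-induced subunit of ribonucleotide reductase, ran from 25.2 to 27.4 CPM in oil and from 27.6 to 38.3 CPM in tamoxifen (log2 fold change 0.26), with groups that did not overlap though they nearly touched. Ddb2, which recognises ultraviolet damage, ran from 17.6 to 20.1 CPM in oil and from 18.7 to 26.1 CPM in tamoxifen (log2 fold change 0.26) with overlapping groups, and 23.8% of its exon bases also lie in Acp2 on the other strand. In DESeq2, Polk (adjusted p = 0.0041), Xpc (0.0361) and Ercc5 (0.0239) passed the test.

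Of the 7 genes of metabolism, transport and other roles, 2 rose. Dglucy (chr12:100779057-100896981, plus strand), a mitochondrial enzyme that turns D-glutamate into oxoproline, was at 12.5, 18 and 15.7 CPM in oil and at 59.3, 58.5 and 65.9 CPM in tamoxifen. The tamoxifen libraries stood close together and far above every oil library. Dglucy rose 3.96-fold, from 15.4 ± 2.78 to 61.2 ± 4.06 CPM, a log2 fold change of 1.99 (SE 0.15, edgeR adjusted p = 0.0031). Slc19a2 (chr1:164249046-164265385, plus strand), the thiamine transporter, was at 22.0, 33.3 and 25.1 CPM in oil and at 54.4, 53.6 and 58.3 CPM in tamoxifen. Its tamoxifen libraries were tighter than its oil libraries and all above them. Slc19a2 rose 2.07-fold, a log2 fold change of 1.05 (SE 0.15, edgeR adjusted p = 0.0305). The other 5 had overlapping groups. The xylulose reductase Dcxr ran from 5.57 to 7.77 CPM in oil and from 6.37 to 10.8 CPM in tamoxifen (log2 fold change 0.46). The lipid transfer protein Pltp ran from 1.59 to 5.04 CPM and from 3.92 to 4.28 CPM (0.36), and adenylate kinase 1 (Ak1) from 1.35 to 3.83 CPM and from 3.42 to 4.01 CPM (0.35). Both were scarce and more spread in oil than in tamoxifen. Def6 ran from 177 to 207 CPM in oil and from 189 to 251 CPM in tamoxifen (0.23), and the receptor kinase Epha2 from 3.68 to 7.20 CPM and from 2.52 to 5.53 CPM (-0.40).

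**Figure D2:**
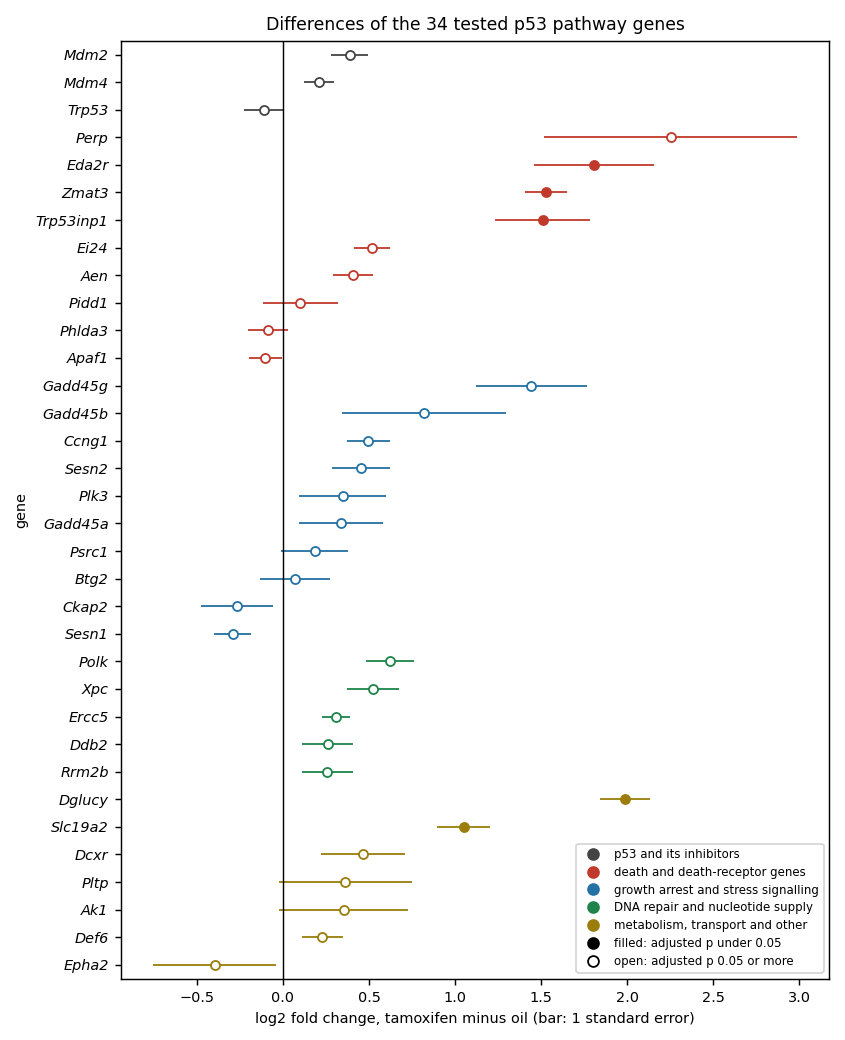
Log2 fold changes, tamoxifen minus oil, of the 34 tested genes from edgeR, with bars of 1 standard error and filled points for an adjusted p under 0.05. The filled points are Zmat3, Trp53inp1, Eda2r, Dglucy and Slc19a2, and Perp, at 2.25, has the longest bar.

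**Figure D3:**
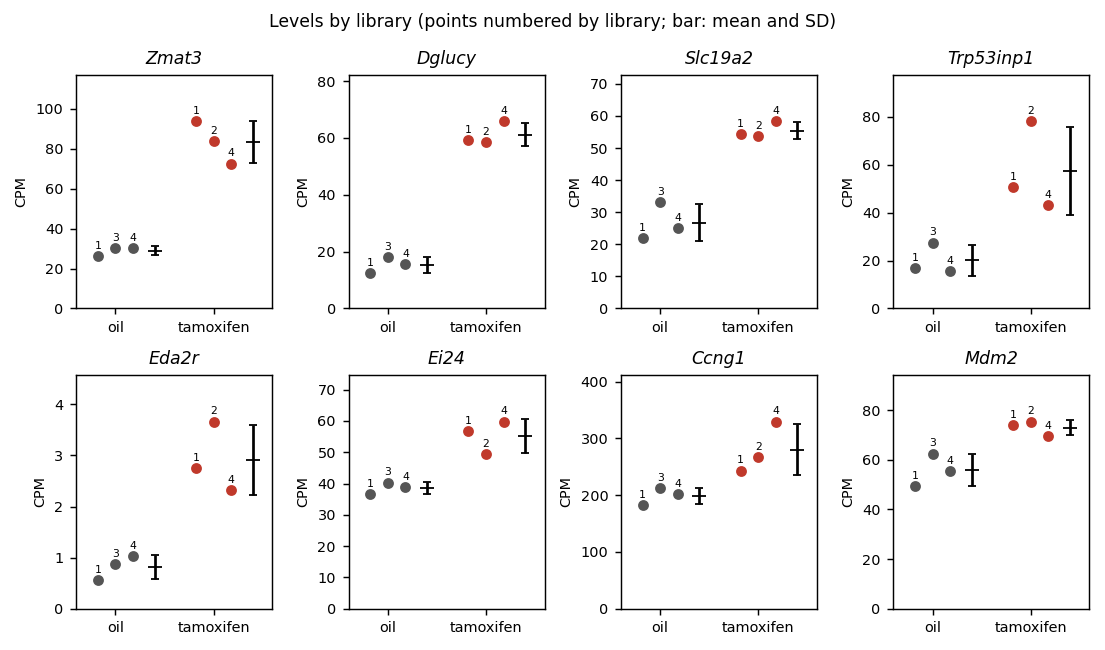
CPM in each library (points, numbered by library) with the mean and SD of each group of 3 for the 5 called genes and for Ei24, Ccng1 and Mdm2. All 3 tamoxifen points lie above all 3 oil points in each panel, by the widest margin relative to oil for Dglucy.

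The calls depended on single libraries to different degrees. Zmat3 and Dglucy were called in each of the 6 edgeR fits that left out 1 library, in 5 of which only 8 to 16 genes of the whole table were called. Their log2 fold changes in those 6 fits ran from 1.44 to 1.62 and from 1.86 to 2.11. Slc19a2 was called in 2 of these fits, without oil 3 and without tamoxifen 4. Trp53inp1 and Eda2r were called in 1 of them, without tamoxifen 4, where 36.3% of all tested genes were called and 18 members were.

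The members covered a wide range of expression. In oil, Trp53 was the highest per length of transcript, at 92.7 CPM per kilobase of exon, followed by Phlda3 (77.7), Def6 (71.0) and Ccng1 (56.6), and Eda2r (0.14) and Perp (0.23) were the lowest of those tested. Of the called genes, Slc19a2 was at 6.98 CPM per kilobase, Dglucy at 3.35, Trp53inp1 at 3.10 and Zmat3 at 2.52, all below Mdm2 (11.0). With tamoxifen, Slc19a2 (14.4) and Dglucy (13.3) were near the level of Mdm2 (14.4), and Eda2r (0.49) was still among the lowest. The members with more than 10 CPM per kilobase in oil had log2 fold changes between -0.27 and 0.50.

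**Figure D4:**
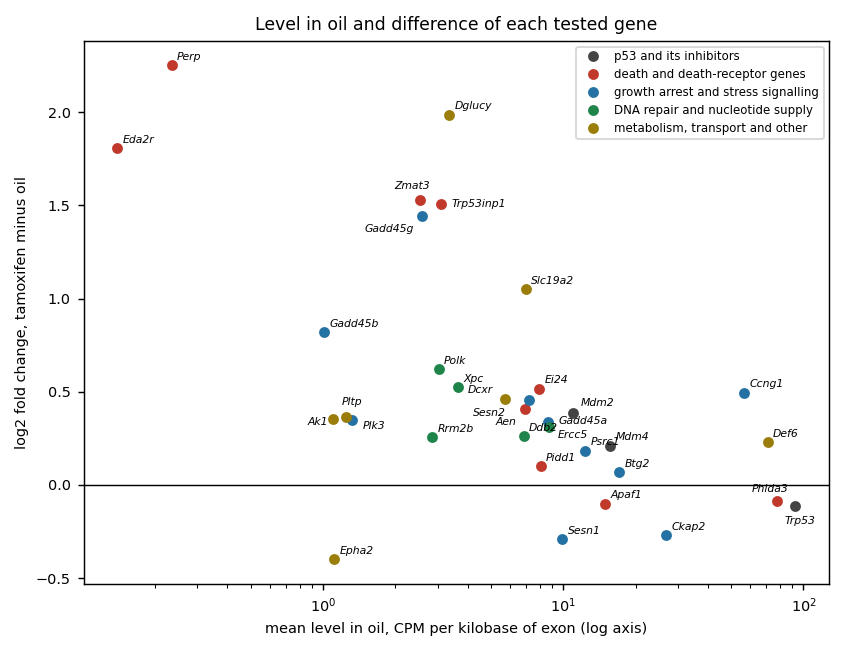
Mean level in oil (CPM per kilobase of exon, log axis) against the log2 fold change, tamoxifen minus oil, for the 34 tested genes, coloured by role. The log2 fold changes above 1 all belong to genes below 10 CPM per kilobase in oil, and the most abundant genes, Trp53, Phlda3, Def6 and Ccng1, lie between -0.11 and 0.50.

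The promoters were then searched for the sequence that p53 is known to bind. No sequence was used to choose the members, but many of them are known as p53 targets through p53 binding, so their share of matches is a description and not independent of the choice. RefSeq promoter sequences (GRCm38.p6, 250 bases before to 50 bases after each start) matched 30 of the 36 members, with 38 promoters. There was no entry for Rrm2b, Zmat3, Ddb2, Xpc, Perp and Trp53inp1. A p53 consensus half-site, a run of purines, then C, a pair of A or T bases, G and a run of pyrimidines, has 10 bases and reads the same on both strands. It occurred in 10 of the 38 member promoters (26.3%), against 6.78% of the promoters of tested genes and 8.36% of all 32851 promoters in the table. Counted by gene, 9 of 30 members (30.0%) held one, against 8.07% of 9122 tested genes with an entry. The 9 genes were Aen, Ccng1, Ckap2, Ei24, Gadd45a, Mdm2, Polk, Sesn1 and Trp53, and the 2 promoters of Aen shared 1 site.

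A pair of half-sites with at most 1 mismatch and up to 13 bases between them occurred in 1 member, Ccng1, and in 0.442% of the promoters of tested genes. Without a mismatch none of the member promoters held one. A pair of CATG cores with 6 bases of any kind between them occurred in none of them and in 0.321% of the promoters of tested genes, and the half-site and the core pair can share bases. The Ccng1 promoter is shown because its pair is the closest match among the members. It lies on the minus strand at chr11:40755287-40755536, ends at the base before the RefSeq start, shares its last 25 bases with an annotated Ccng1 exon, and has the pair, with no base between the half-sites, in capitals.

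Ccng1: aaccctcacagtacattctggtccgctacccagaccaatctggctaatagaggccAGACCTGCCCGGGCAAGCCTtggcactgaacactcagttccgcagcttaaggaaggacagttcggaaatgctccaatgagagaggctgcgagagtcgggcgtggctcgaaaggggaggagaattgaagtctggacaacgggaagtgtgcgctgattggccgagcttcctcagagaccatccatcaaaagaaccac

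Single half-sites of the p53 feedback genes and of Ei24 and Ckap2 are shown with up to 20 bases on either side, since they set members of either sign next to each other. The stretches are chr10:117710915-117710964 on the minus strand for Mdm2, with the site starting at base -186 from the start, chr11:69580264-69580313 on the plus strand for Trp53 (-75), chr9:36797335-36797364 on the minus strand for Ei24 (-10) and chr8:22185993-22186042 on the minus strand for Ckap2 (-203). The half-sites are in capitals. The Ei24 stretch lies in an annotated Ei24 exon of GENCODE M21, and the stretches of Mdm2, Trp53 and Ckap2 lie in no annotated exon.

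Mdm2: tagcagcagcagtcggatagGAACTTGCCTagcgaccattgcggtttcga
Trp53: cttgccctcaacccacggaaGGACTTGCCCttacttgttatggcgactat
Ei24: ccagctgccccgtgcggcccGGGCATGCCC
Ckap2: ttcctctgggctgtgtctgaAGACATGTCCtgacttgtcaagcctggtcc

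Log2 fold changes with and without a half-site in this window are set side by side as a description. The 9 members with a half-site had log2 fold changes between -0.29 (Sesn1) and 0.62 (Polk), with a median of 0.39. For both Sesn1 and Polk the half-site lies before a start inside the annotated gene, and the promoter at the other start held none. The 19 tested members with an entry and no half-site had a median of 0.35 and ran from -0.40 (Epha2) to 1.99 (Dglucy). Of the 5 called genes, Dglucy, Slc19a2 and Eda2r had an entry and held no half-site. The 250 bases before the start of Dglucy (chr12:100778807-100779056, plus strand) and Slc19a2 (chr1:164248796-164249045, plus strand) are shown as the called genes with the smallest adjusted p that had an entry, without capitals since no match was found. The letters say nothing of sites outside this window.

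Dglucy: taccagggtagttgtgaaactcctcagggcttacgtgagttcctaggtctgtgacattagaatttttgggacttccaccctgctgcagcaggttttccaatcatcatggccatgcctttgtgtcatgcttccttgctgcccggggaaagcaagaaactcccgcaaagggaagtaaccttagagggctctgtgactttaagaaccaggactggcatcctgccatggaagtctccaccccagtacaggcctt
Slc19a2: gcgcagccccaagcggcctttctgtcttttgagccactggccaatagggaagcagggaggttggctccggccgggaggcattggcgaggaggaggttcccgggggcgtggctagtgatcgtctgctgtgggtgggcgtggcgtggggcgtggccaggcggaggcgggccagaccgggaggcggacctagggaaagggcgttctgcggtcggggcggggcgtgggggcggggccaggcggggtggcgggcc

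Other genes of the pathway were taken from lists written beside the members. Of 32 upstream kinases, co-regulators and p53 family genes, 30 were tested and 0 were called in edgeR or in DESeq2. At an unadjusted p under 0.05, 0 of these were higher and 6 lower, beside 12.6% and 7.99% of all tested genes. Their median log2 fold change was -0.08, with 9 positive and 21 negative, against 0.36 for the members. The damage kinase Atm had 123, 118 and 120 CPM in oil and 101, 89.2 and 104 CPM in tamoxifen, a log2 fold change of -0.30 (adjusted p = 0.133). Of 53 further target genes, 39 were tested, and 3 (7.69%) were called higher and 0 lower, beside 1.75% and 0.267% of all tested genes. Their median log2 fold change was 0.27. With a filter at a mean of 50 counts, only 1 gene of both lists was called higher, so the share depends on the filter. Cdkn1a, the cell cycle inhibitor p21, was at 18.2, 22.3 and 15.4 CPM in oil and at 95.7, 118 and 95.4 CPM in tamoxifen, a rise of 5.53-fold (log2 fold change 2.47, SE 0.16, edgeR adjusted p = 0.0029). Trp53cor1, the p53-induced long RNA beside Cdkn1a, was called at 0.15 to 0.24 CPM in oil and 1.06 to 1.76 CPM in tamoxifen (adjusted p = 0.0342), and 44.1% of its exon bases also lie in other genes on the opposite strand. The cytokine gene Lif had 0, 0 and 1 counts in oil and 33, 50 and 20.5 in tamoxifen (adjusted p = 0.0257). Trp53cor1 and Lif passed the low-count filter only through the tamoxifen libraries, so their calls lean on the group where they were high. Of the p53-induced BCL2 family genes, Bax differed by 0.23 on the log2 scale (adjusted p = 0.228) and Bbc3 by 0.54 (adjusted p = 0.178), and Pmaip1 had at most 1 count in any library.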

How the data were processed

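Per the labels and the study, RNA was extracted with Trizol, sequenced as paired-end reads and processed with STAR and DESeq2, and the submitters' processing notes name mm10. The deposited values are the authors' estimated counts for each gene symbol, without scaling between libraries, and 25.9% to 27.3% of them per library hold a fraction of a read. The counting program, annotation and use of strand are not given in the sources used here, so reads of overlapping genes on opposite strands cannot be told apart. The authors' conversion of 26 symbols to dates left those rows unnamed.

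The p53 genes, their roles, the further pathway lists and the marker lists were chosen with earlier results of these data known. All members are accounted for. Values in every library are given for Trp53, Mdm2, Mdm4, untested members (as counts) and members with an unadjusted p under 0.05, and the others by range and log2 fold change. Of the further pathway genes, called ones and Cdkn1a, Bax, Bbc3 and Pmaip1 are named. Atm, Isg15 and single libraries of Pidd1 and Ckap2 were chosen after their values were seen.

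Counts were rounded and analysed in R 4.3.3 with edgeR 4.0.16 (filterByExpr by group, TMM, quasi-likelihood F test, tamoxifen minus oil, no block). Adjusted p-values are Benjamini-Hochberg values over 11614 tested genes, with a threshold of 0.05. Log2 CPM used a prior count of 2. Standard errors were derived from the F statistics. Levels per length used the exon union of GENCODE M21 (GRCm38), which also gave gene coordinates. The code was tested on simulated data. Alternatives were DESeq2 1.42.0, limma 3.58.1 (voom), other normalizations and filters, unrounded counts, a replicate block and leaving out each library.

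The column names carry the numbers 1, 3 and 4 for oil and 1, 2 and 4 for tamoxifen, while the titles carry 1, 2 and 4 and then 1, 3 and 4, so oil 3 and tamoxifen 2 were used by group only. No pairing of oil and tamoxifen libraries by number is given in the sources used here. Deviations of same-numbered libraries from their group means correlated at -0.13 (number 1) and 0.06 (number 4). With groups of 3 libraries, these values cannot decide whether the libraries were paired. The study gives 3 mice per group, and the floor of 3 counts covers counting error only.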

Additional observations from a re-analysis of the deposited data

How the results depend on the processing

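The 5 members called higher were 14 in DESeq2, 3 in limma-voom, 3 with a filter at a mean of 50 counts and 2 to 17 with 1 library left out, and the 0 called lower were 0 to 1 with 1 library left out. Of the further pathway genes, the 3 called higher were 5 in DESeq2, 5 without a low-count filter, 1 with the mean filter and 1 to 20 with 1 library left out, and the 0 called lower were 1 in DESeq2 and 0 to 15 with 1 library left out. Over all tested genes, the 203 called higher were 713 in DESeq2, 48 in limma-voom, 372 without the filter, 120 with the mean filter and 8 to 2278 with 1 library left out. The 31 called lower were 231, 6, 61, 17 and 0 to 2024 under the same settings. The upper ends came from leaving out tamoxifen 4. Fits that leave out a library rest on fewer samples, and the cause of the shifts was not tested.

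Usp18 passed the test in DESeq2 (1.0 on the log2 scale) and without the filter (0.99), and also without tamoxifen 4 (1.04), and over the fits with 1 library left out its log2 fold change ran from 0.73 to 1.18. That of Kit ran from 0.30 to 0.68, and it passed the test without tamoxifen 4 (0.68). The sign turned for 5 members with log2 fold changes near 0. Leaving out 1 library at a time, Pidd1 ran from -0.2117 to 0.2618, Phlda3 from -0.1463 to 0.0196, Btg2 from -0.0836 to 0.2725 and Psrc1 from -0.0943 to 0.3379, with the sign turned for Pidd1 and Psrc1 without tamoxifen 4, for Phlda3 without oil 3 and for Btg2 without oil 4, tamoxifen 1 or tamoxifen 2. With the replicate block, Apaf1 was at 0.0132 and Btg2 at -0.0073. No called member changed sign under any of the 14 alternatives. The replicate number as a block pairs libraries by number only and leaves 1 residual degree of freedom. Oil 3 and tamoxifen 2 have no partner in it, so its fold changes rest on the libraries numbered 1 and 4. In that fit 4 members were called higher (Eda2r was not) and the median log2 fold change was 0.33. Requiring no mismatch took the share of member promoters with a pair of half-sites from 2.63% to 0.0%. Wider windows around the starts were not run, since only promoter sequences were at hand.

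Depth limits Fas, at 5 counts or fewer in every library, and Plk2, at 3 or fewer in 5 of the 6 and at 11 in tamoxifen 4.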
